A study of Homo sapiens with 4 samples.

Results

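A set of 10 genes of transforming growth factor beta (TGF-β) superfamily signalling was followed, namely the ligands TGFB1, TGFB2, INHBA, BMP4, BMP6, GDF5 and GDF15, the inhibitory SMAD gene SMAD7 and the target genes ID1 and ID3. They were picked by gene symbol from the deposited count table, and all 10 were found among its 61806 genes. Gene positions below are those of the table, on GRCh38. The table holds poly(A) RNA-seq of a breast cancer line, MDA-MB-231, and of MDA-MB-435, labelled as melanoma. Both were labelled wild type and were sequenced as a control and after CPYPP at 10 µM for 6 h. CPYPP is a small-molecule inhibitor of DOCK proteins, which activate the GTPase Rac, and the study used it to induce paraptosis, a cell death with cytoplasmic vacuoles. There was 1 library per condition, 4 in all, the cells grew in medium with fetal bovine serum, and the sources used here do not state what the control cells received. The question here was how these signals differed between the untreated lines and how they changed with CPYPP.

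Ligands of this superfamily are secreted dimers that bind serine/threonine kinase receptors on the cell surface. TGF-βs and activins act mainly through SMAD2 and SMAD3, BMPs and some GDFs such as GDF5 through SMAD1, SMAD5 and SMAD9, and both arms need SMAD4. SMAD7 blocks the activated receptors and is itself induced by the pathway, while ID1 and ID3 are among the most direct targets of the BMP arm. GDF15 is a distant member that signals through GFRAL, a receptor of the hindbrain, and its gene is known to be induced by cellular stress through ATF4 and DDIT3 (CHOP).

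Between 17196385 and 22663954 reads were counted on genes per library. Of 9 melanocyte lineage markers, SOX10, S100B and DCT had 464 to 3031 counts in the libraries labelled MDA-MB-435 and 0 to 3 in those labelled MDA-MB-231. MITF had 690 to 1585 counts in all 4 libraries, and the pigment genes PMEL, MLANA, TYR and TYRP1 had 0 to 34. The epithelial genes KRT19, EPCAM and CDH1 had 287 to 3953 counts in MDA-MB-231 and 0 to 4 in MDA-MB-435. The other 3 of the 6 epithelial markers were present in both lines, with 310 to 625 counts of KRT7 and KRT8 and 4077 to 5740 of KRT18 in MDA-MB-435, where the list summed to 366 TPM in the control against 1800.4 TPM in the MDA-MB-231 control. The 3 leukocyte markers summed to at most 0.480 TPM and the 2 endothelial markers to at most 1.01 TPM in any library, so that the defining genes of these cell types were at or near 0. With 1 library per condition there is no replicate check. Each test on a pair of libraries compares those 2 libraries and not the conditions, and every interval below is a 95% exact interval that covers counting error only. In bulk RNA, fewer cells that express a gene and less of its RNA per cell cannot be told apart.

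The bases before the RefSeq start of 4 members are shown on GRCh38.p14, because GDF15 and INHBA are the members whose fold changes with CPYPP differed between the lines, and ID1 and ID3 are paralogs that did not go the same way between the lines. Each run is 250 bases, 5′ to 3′ on the gene's strand, and ends at the base before the start. Capitals mark matches, on either strand, to the SMAD box CAGAC, the GC-rich SMAD1/5 element GGCGCC, the SMAD palindrome GTCTAGAC, the cAMP response element (CRE) TGACGTCA, its first bases TGACG, the AP-1 site TGAGTCA or TGACTCA, and the element read by ATF4 with its partners, TGATGNAAN.
GDF15, chr19:18385908-18386157, plus strand: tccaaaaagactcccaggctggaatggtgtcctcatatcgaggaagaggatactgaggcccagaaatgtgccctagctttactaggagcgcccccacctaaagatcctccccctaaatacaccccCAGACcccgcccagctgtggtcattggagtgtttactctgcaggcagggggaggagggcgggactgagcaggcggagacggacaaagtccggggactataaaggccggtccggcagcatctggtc
INHBA, chr7:41703091-41703340, minus strand: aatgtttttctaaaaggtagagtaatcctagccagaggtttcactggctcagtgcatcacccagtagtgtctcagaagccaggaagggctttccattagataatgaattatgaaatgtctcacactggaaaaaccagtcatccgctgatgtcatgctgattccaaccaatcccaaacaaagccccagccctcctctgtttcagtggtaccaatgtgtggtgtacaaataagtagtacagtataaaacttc
ID1, chr20:31605039-31605288, plus strand: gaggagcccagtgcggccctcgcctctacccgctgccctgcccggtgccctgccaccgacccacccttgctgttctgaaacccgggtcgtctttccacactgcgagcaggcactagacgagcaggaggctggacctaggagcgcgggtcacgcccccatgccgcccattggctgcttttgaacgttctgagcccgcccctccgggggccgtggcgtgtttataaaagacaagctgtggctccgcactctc
ID3, chr1:23559502-23559751, minus strand: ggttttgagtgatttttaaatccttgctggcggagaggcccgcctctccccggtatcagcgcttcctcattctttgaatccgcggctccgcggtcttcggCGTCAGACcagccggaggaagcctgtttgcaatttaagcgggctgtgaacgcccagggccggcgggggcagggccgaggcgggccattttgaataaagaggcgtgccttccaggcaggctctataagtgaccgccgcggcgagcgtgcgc
The window of GDF15 held 1 SMAD box, at 125 bases before the start, and that of ID3 held 1 SMAD box, which shares bases with a match to TGACG. None of these letters stood in the windows of INHBA and ID1. Over the 35116 windows of the same length in the RefSeq table, 38.0% held CAGAC, 16.4% held GGCGCC, 0.182% held GTCTAGAC, 21.2% held TGACG, 1.65% held the whole CRE, which contains TGACG, 4.20% held the AP-1 site and 3.13% held TGATGNAAN. All 10 members were in that table, with 14 starts, and the shares above are per window. Among the others BMP4 held 1 GGCGCC and 2 SMAD boxes and SMAD7 3 SMAD boxes, each summed over 3 windows, TGFB2 2 SMAD boxes and 1 TGACG, and GDF5 1 SMAD box. A match describes the letters of a window and says nothing of binding.

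Before treatment the lines differed strongly in ligand RNA. Levels are given as TPM, the transcript abundance scaled for exon length and library depth, computed here from the counts and the exon lengths of the table so that genes can be set beside each other. In the MDA-MB-231 control the order was ID1, TGFB2, BMP4, ID3, TGFB1, SMAD7, INHBA, GDF15, GDF5 and BMP6, from 336 down to 0.844 TPM. SMAD7 at 15.4 TPM (13.8 to 17.1) and INHBA at 14.6 TPM (13.5 to 15.7) overlapped within counting error, as did GDF5 and BMP6. In the MDA-MB-435 control ID3 and ID1 led with 161 and 155 TPM, again within counting error of each other. They were followed by TGFB2, SMAD7, GDF15, TGFB1, BMP4, INHBA and GDF5, and BMP6 had no count.

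**Figure D1:**
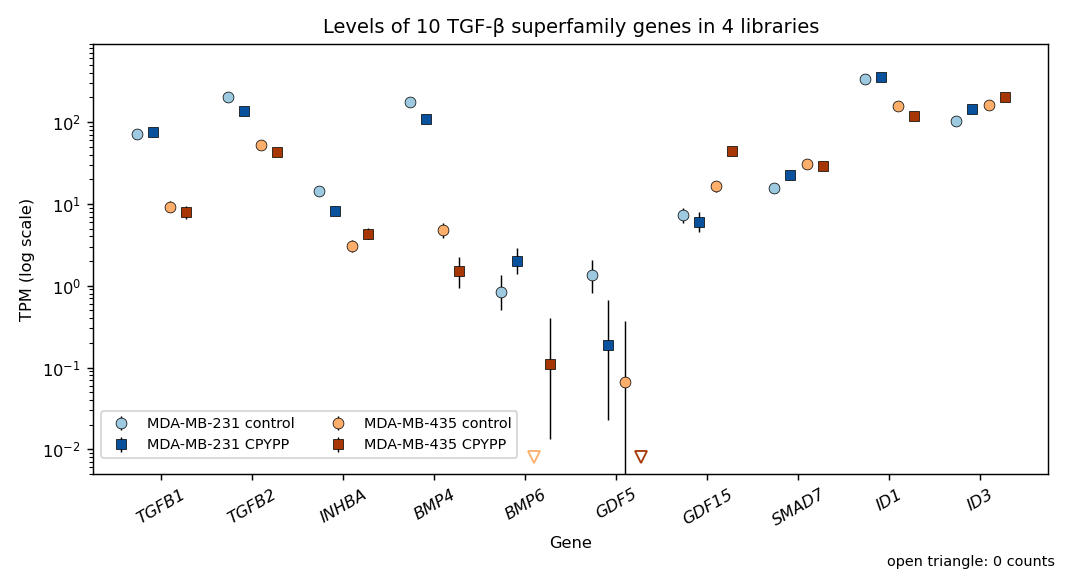
TPM of each gene (log axis) in the 4 libraries, with circles for controls, squares for CPYPP, blue for MDA-MB-231 and orange for MDA-MB-435; bars are 95% exact Poisson intervals of the counts and open triangles stand for 0 counts. TGFB1, TGFB2, INHBA, BMP4 and BMP6 are lower in both MDA-MB-435 libraries than in both MDA-MB-231 libraries, and GDF15 is higher. GDF5 has at most 2 counts outside the MDA-MB-231 control, so its order among those libraries is not resolved.

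Of the 10 members, 7 were lower and 1 was higher in the MDA-MB-435 control than in the MDA-MB-231 control, by edgeR's binomial test with a Benjamini-Hochberg adjusted p under 0.05 and a fold change over 2. Over all 18269 genes tested, 20.9% were lower and 22.2% higher. The median log2 fold change of the members was -2.18, against 0.01 over all genes tested.

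BMP4, a ligand of the SMAD1/5 arm at chr14:53949736-53958761, had the largest difference that did not rest on a handful of reads. It had 3050 counts (175 TPM) in the MDA-MB-231 control and 85 counts (4.77 TPM) in the MDA-MB-435 control, 38.5-fold lower (31.0 to 48.3). An uncharacterised gene that overlaps BMP4 on the opposite strand, ENSG00000287156, had 70 and 0 counts in the same libraries, and the strand setting of the counting is not given in the sources used here.

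The ligands of the SMAD2/3 arm followed the same direction. TGFB1, the most widely expressed TGF-β isoform (chr19:41301587-41353922), had 1300 counts (70.6 TPM) in the MDA-MB-231 control and 174 (9.26 TPM) in the MDA-MB-435 control, 8.01-fold lower (6.83 to 9.44). TGFB2, a TGF-β isoform whose receptor binding is helped by the co-receptor TGFBR3 (chr1:218345336-218444619), had 6961 counts (204 TPM) and 1802 (51.7 TPM), 4.14-fold lower (3.93 to 4.36). INHBA, the subunit of activin A (chr7:41667168-41705834), had 680 counts (14.6 TPM) and 146 (3.06 TPM), 4.99-fold lower (4.17 to 6.01). All 3 were thus called lower in MDA-MB-435, and TGFB2 was still the most abundant of the 7 ligands there.

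BMP6 (chr6:7726099-7881728) and GDF5 (chr20:35433347-35454746), ligands of the SMAD1/5 arm, were near the detection limit. BMP6 had 18 counts in the MDA-MB-231 control and 0 in the MDA-MB-435 control, at least 6.43-fold lower when the floor is set at 3 counts in the library (adjusted p = 3.63e-06). GDF5 had 20 counts and 1 count, a ratio of 21.4 with a counting interval from 3.43 to 888 (adjusted p = 1.10e-05). Neither line made more than 1.35 TPM of either ligand in its control.

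GDF15 (chr19:18374731-18389176) was the only ligand of the set that was called higher in the MDA-MB-435 control. It had 86 counts (7.31 TPM) in MDA-MB-231 and 196 (16.3 TPM) in MDA-MB-435, 2.13-fold higher (1.64 to 2.77) with an adjusted p of 3.60e-09. With the coefficient of variation between replicates set to 0.4, the control calls of GDF15 (adjusted p = 0.524), ID1 (0.444), TGFB2 (0.0882) and INHBA (0.0508) were lost in edgeR's exact test, and all 8 held at 0.2. GFRAL, its receptor, had 0 counts in all 4 libraries.

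The intracellular members did not share a direction between the controls. ID1, a dominant-negative partner of basic helix-loop-helix factors (chr20:31605283-31606515), had 2337 counts (336 TPM) in the MDA-MB-231 control and 1101 (155 TPM) in the MDA-MB-435 control, 2.27-fold lower (2.12 to 2.45). Its paralog ID3 (chr1:23557926-23559501) had 870 counts (103 TPM) and 1391 (161 TPM), a 1.49-fold higher level (1.37 to 1.63) that stayed under the fold change of 2. SMAD7 (chr18:48919853-48950965) had 343 counts (15.4 TPM) and 690 (30.4 TPM), 1.88-fold higher (1.65 to 2.14) and also under that limit. The interval of SMAD7 reached past 2, and that of ID3 did not.

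**Figure D2:**
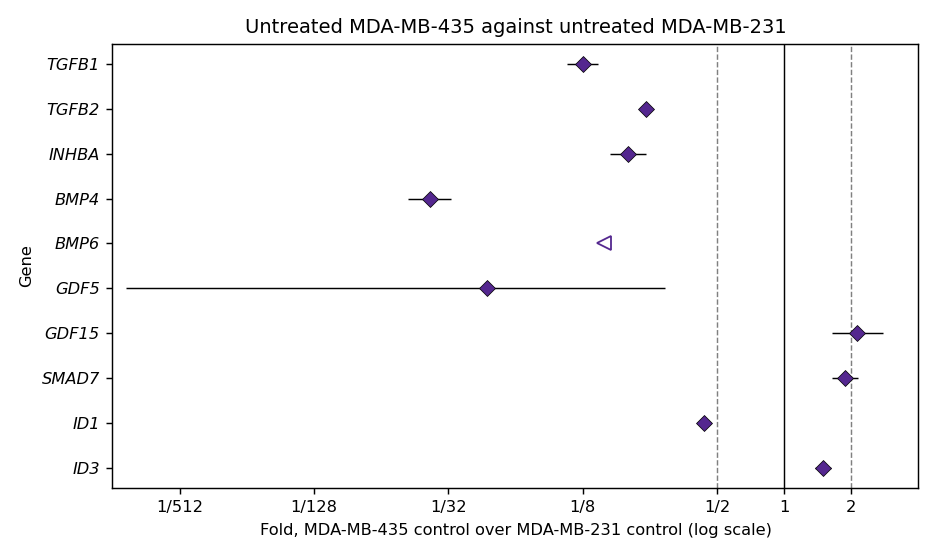
Fold of each gene in the MDA-MB-435 control over the MDA-MB-231 control (log axis) with 95% exact binomial intervals; the solid line marks 1, the dashed lines a fold of 2 either way, and the open triangle of BMP6 is a bound. BMP4 lies farthest to the left among genes with narrow intervals, and GDF15 and SMAD7 lie near the right dashed line.

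A fit over all 4 libraries, with line and treatment as terms, gave 1 line difference per gene over both treatments. It includes the same controls, so a call does not show that a difference held in the treated libraries by themselves. In edgeR's quasi-likelihood test with 1 residual degree of freedom, 6 of the 9 members tested were lower and 3 higher in MDA-MB-435, against 32.4% and 30.5% of all 16801 genes. The line log2 fold change was -5.58 ± 0.22 (SE) for BMP4, -3.13 ± 0.16 for TGFB1, -1.83 ± 0.13 for TGFB2, -1.63 ± 0.28 for INHBA and -1.37 ± 0.14 for ID1. BMP6 stood at -4.67 ± 0.88. GDF15 stood at 1.97 ± 0.36 (adjusted p = 0.000823), SMAD7 at 0.65 ± 0.18 (adjusted p = 0.00822) and ID3 at 0.54 ± 0.13 (adjusted p = 0.00402). The calls of SMAD7 and ID3 were lost without the treatment term (adjusted p = 0.0690 and 0.0951 in edgeR's quasi-likelihood test). No limit on the fold was set in this fit, and GDF5 had too few counts to enter it.

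With CPYPP, few members passed the test in either line. In MDA-MB-231 1 of the 10 was higher and 1 lower, against 4.22% and 3.09% of 16441 genes, and the median log2 fold change of the members was -0.13 against -0.01. In MDA-MB-435 1 of the 8 tested was higher and 1 lower, against 3.17% and 6.52% of 16527 genes, with medians of -0.06 and -0.02. BMP6 and GDF5 had at most 2 counts in either MDA-MB-435 library and were not tested there. Of the members, 8 had at least 10 counts in all 4 libraries, BMP6 in 2 and GDF5 in 1.

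GDF15 rose in MDA-MB-435 and not in MDA-MB-231. It went from 196 to 436 counts in MDA-MB-435 (16.3 to 44.1 TPM), 2.87-fold higher (2.42 to 3.41), with an adjusted p of 2.98e-36 in edgeR's binomial test. The call held at an assumed biological coefficient of variation of 0.2 and not at 0.4. In MDA-MB-231 it went from 86 to 51 counts (7.31 to 6.02 TPM), a fold of 0.809 whose interval, 0.561 to 1.16, includes no change (adjusted p = 0.379). The fold in MDA-MB-435 was 3.54 times that in MDA-MB-231 (2.37 to 5.32, adjusted p = 1.00e-09 in Fisher's exact test on the 4 counts). Its order was therefore MDA-MB-435 with CPYPP, MDA-MB-435 control, and the MDA-MB-231 libraries, whose intervals overlapped.

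BMP4 was called lower in MDA-MB-435 alone, although its direction was the same in both lines. It went from 85 to 22 counts (4.77 to 1.50 TPM) in MDA-MB-435, 3.0-fold lower (1.86 to 5.03, adjusted p = 2.97e-06), a call that was lost at an assumed biological coefficient of variation of 0.2 (adjusted p = 0.118). In MDA-MB-231 it went from 3050 to 1373 counts (175 to 109 TPM), 1.63-fold lower (1.53 to 1.74), under the fold change of 2. The opposite-strand gene ENSG00000287156 went from 70 to 40 counts in MDA-MB-231. The ratio of the BMP4 folds, 0.543 (0.322 to 0.881), had an adjusted p of 0.0352 in Fisher's exact test but did not reach a ratio of 2, so that a larger fall in MDA-MB-435 was not called.

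The folds of INHBA with CPYPP lay on opposite sides of 1 in the lines. It went from 680 to 279 counts in MDA-MB-231 (14.6 to 8.29 TPM), 1.79-fold lower (1.55 to 2.06), and from 146 to 170 counts in MDA-MB-435 (3.06 to 4.33 TPM), 1.50-fold higher (1.20 to 1.89). Both differences exceeded counting error and neither passed the fold change of 2. The ratio of the 2 folds was 2.68 (2.05 to 3.51, adjusted p = 3.40e-12 in Fisher's exact test) and passed the test. GDF15 and INHBA were the 2 of 8 members whose fold was called higher in MDA-MB-435, against 1.19% of 14262 genes, and no member was called lower, against 3.71%.

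TGFB1 and TGFB2 were not called in either line. TGFB1 had 1300 and 1013 counts in MDA-MB-231 (70.6 and 76.4 TPM) and 174 and 122 in MDA-MB-435 (9.26 and 7.88 TPM), with folds of 1.06 (0.979 to 1.16) and 0.904 (0.711 to 1.15). Both intervals include 1. The span of TGFB1 overlaps HNRNPUL1, a strongly expressed gene on the other strand with 5819 to 9484 counts. TGFB2 had 6961 and 3308 counts in MDA-MB-231 (204 and 135 TPM), 1.54-fold lower (1.48 to 1.61), and 1802 and 1248 in MDA-MB-435 (51.7 and 43.5 TPM), 1.12-fold lower (1.04 to 1.20).

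BMP6 and GDF5 gave the remaining calls, on few reads and in MDA-MB-231. BMP6 went from 18 to 31 counts (0.844 to 2.02 TPM), 2.35-fold higher (1.27 to 4.46, adjusted p = 0.01005). GDF5 went from 20 to 2 counts (1.35 to 0.187 TPM), a ratio of 0.136 with a counting interval from 0.0155 to 0.562 (adjusted p = 0.00312). Neither call held once a biological coefficient of variation of 0.2 was assumed (adjusted p = 0.619 and 0.302).

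The inhibitory and target members changed by less than the fold of 2 in both lines. SMAD7 had 343 and 359 counts in MDA-MB-231 (15.4 and 22.4 TPM), 1.43-fold higher (1.23 to 1.66), and 690 and 545 in MDA-MB-435 (30.4 and 29.1 TPM), a fold of 1.02 (0.909 to 1.14). Its log2 fold change in MDA-MB-435, 0.03, turned to -0.12 when scaled by total counts. ID1 had 2337 and 1762 counts in MDA-MB-231 (336 and 352 TPM), a fold of 1.03 (0.967 to 1.10) that fell below 1 with total counts (log2 fold change -0.03), and 1101 and 688 in MDA-MB-435 (155 and 118 TPM), 1.24-fold lower (1.13 to 1.37). ID3 had 870 and 875 counts in MDA-MB-231 (103 and 144 TPM) and 1391 and 1425 in MDA-MB-435 (161 and 201 TPM), 1.37-fold (1.25 to 1.51) and 1.32-fold (1.23 to 1.42) higher. ID3 was thus higher beyond counting error in each line, ID1 was not, and neither was called. For total counts in place of TMM scaling, log2 fold changes shifted by -0.07 for the MDA-MB-231 pair, by -0.15 for the MDA-MB-435 pair and by 0.08 between the controls.

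**Figure D3:**
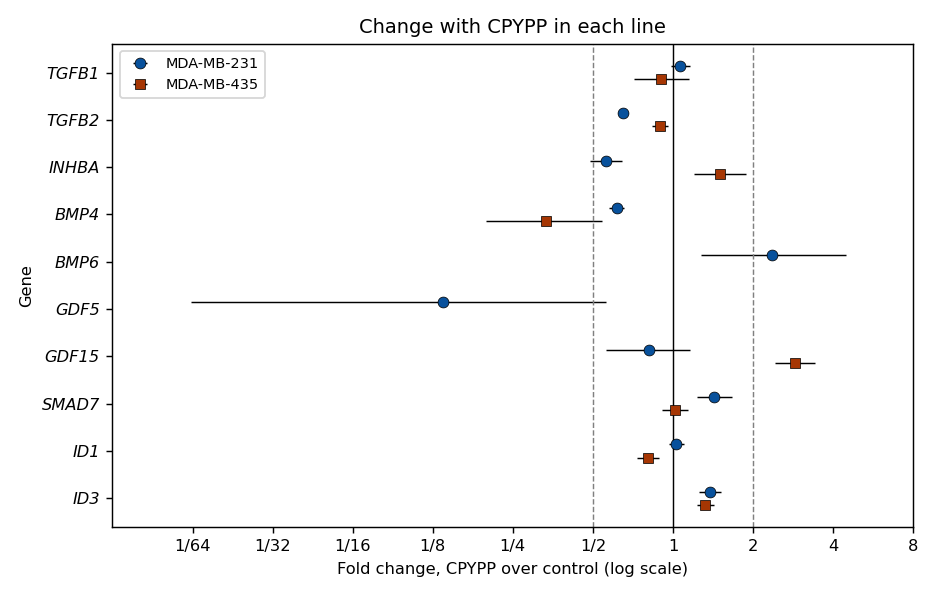
Fold of each gene with CPYPP over control (log axis), blue circles for MDA-MB-231 and brown squares for MDA-MB-435, with 95% exact binomial intervals; dashed lines mark a fold of 2 either way, and BMP6 and GDF5 were not tested in MDA-MB-435. GDF15 lies right of the dashed line in MDA-MB-435 alone, and INHBA lies on opposite sides of 1 in the 2 lines.

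Fitted over both lines, the CPYPP effect was called for 1 of 9 members. BMP4 was lower by a log2 fold change of -0.94 ± 0.20 (SE, adjusted p = 0.0180 in edgeR's quasi-likelihood test), against 2.85% lower and 4.39% higher of all 16801 genes. TGFB2 stood at -0.44 ± 0.12 (adjusted p = 0.0609), ID3 at 0.39 ± 0.13 (adjusted p = 0.105) and GDF15 at 0.72 ± 0.36 (adjusted p = 0.290). TGFB2 was called lower by DESeq2 (adjusted p = 0.0445), and ID3 was called higher by DESeq2 (adjusted p = 0.00320). GDF15 was called higher when no filter on low counts was set (adjusted p = 0.0468). The other 5 members had adjusted p-values of 0.320 and above.

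Around the ligands, NOG, FST and BMPER fell in MDA-MB-231 and FST fell in MDA-MB-435. Of 20 extracellular regulators, 14 were tested in MDA-MB-231, where 3 were lower and none higher, against 3.09% lower over all genes. In MDA-MB-435 10 were tested and 1 was lower, against 6.52% over all genes, a share near that background. NOG (noggin), which sequesters BMP4 and its relatives, fell from 665 to 54 counts in MDA-MB-231 (61.7 to 6.95 TPM), 9.02-fold lower (6.83 to 12.1, adjusted p = 1.56e-95), and had 6 and 8 counts in MDA-MB-435. FST (follistatin), which binds activins, fell from 6485 to 2031 counts in MDA-MB-231, 2.34-fold lower (2.23 to 2.46), and in MDA-MB-435 it fell from 992 to 171, 4.50-fold lower (3.82 to 5.32). BMPER, a secreted modulator of BMPs, fell from 427 to 124 counts in MDA-MB-231, 2.52-fold lower (2.06 to 3.11), and had 8 counts and 1 count in MDA-MB-435.

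These antagonists also differed between the untreated lines. Between the controls 8 of the 14 regulators tested were lower in MDA-MB-435 and 1 was higher, against 20.9% and 22.2% of all genes, with a median log2 fold change of -1.74 against 0.01 over all genes. NOG was 119-fold lower there (54.3 to 325), BMPER 57.2-fold (28.8 to 133) and FST 7.01-fold (6.55 to 7.50). BMP4, the ligand that noggin binds, was thus lower in the same line. In the fit over both lines 13 regulators were tested. NOG, FST, BMPER and THBS1 were lower with CPYPP, against 2.85% of all genes, and none was higher, against 4.39%. NOG and BMPER had at most 8 counts in each MDA-MB-435 library, so their calls rest mainly on MDA-MB-231. NOG did not fall in MDA-MB-435. THBS1, which can activate latent TGF-β, was singled out after its values were seen.

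Within a line, other ligands, receptors and SMADs gave few calls with CPYPP. Of 22 other ligands, 8 were tested in each line. None was called in MDA-MB-231, against 4.22% higher and 3.09% lower of all genes. In MDA-MB-435 1 was lower and none higher, against 6.52% and 3.17%. This sole call was INHA, the inhibin α subunit, with 19 and 5 counts in MDA-MB-435 (adjusted p = 0.0478 in edgeR's binomial test). INHBB, the activin B subunit, had 569 and 251 counts in MDA-MB-231, a log2 fold change of -0.73 that was not called, and 3 and 2 in MDA-MB-435. AMH and BMP2 were not called with CPYPP in either line. BMP8B, named after its values were seen, had 113 counts in the MDA-MB-231 control and 125 with CPYPP, against 84 and 42 for MDA-MB-435. Neither difference was called, while its fold was called 2.34 times lower in MDA-MB-435 (1.46 to 3.77, adjusted p = 0.000973 in Fisher's exact test), as 1 of the 5 other ligands tested for the ratio of folds, against 3.71% of all genes called lower. No receptor was called in either line (12 and 11 of 15 tested), against the same shares of all genes. Their median log2 fold changes were 0.15 and -0.19, against -0.01 and -0.02 over all genes.

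Between the controls, 3 of 13 receptors were higher in MDA-MB-435, a share near the 22.2% of all genes, and 6 were lower, against 20.9%. ENG (endoglin), a co-receptor best known from endothelial cells, had 20 counts in the MDA-MB-231 control and 1969 in the MDA-MB-435 control, 91.9-fold higher (59.3 to 151). PECAM1, an endothelial marker, had 22 and 40 counts in the same libraries and CDH5 had 0 and 4. The type I receptor ACVR1 was higher by a log2 fold change of 1.22, and the BMP type II receptor BMPR2 was lower at -1.16. ACVR1C had 13 counts and 0. Named after their values were seen, BMPR1B had 179 counts and 0, and TGFBR3 1189 and 56, 22.8-fold lower (17.4 to 30.3). BMPR1A and ACVR2B were lower at -1.16 and -1.14, and ACVRL1, also called higher, had 0 counts and 28. ACVR1C and BMPR1B passed the filter of 10 counts through MDA-MB-231 alone and ACVRL1 through MDA-MB-435 alone, which fixed the direction of their calls. TGFBR2, the TGF-β type II receptor, named after its values were seen, was the only receptor called in the common CPYPP effect, at -0.65 (adjusted p = 0.0243).

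Among 14 SMADs and co-regulators, SMAD6, the inhibitory SMAD of the BMP arm, fell in MDA-MB-435 from 650 to 222 counts, 2.27-fold lower (1.95 to 2.66). It had 358 and 262 counts in MDA-MB-231, a fold of 0.999 (0.848 to 1.17), and the ratio of the folds was 2.27-fold lower in MDA-MB-435 (1.81 to 2.84, adjusted p = 6.54e-12 in Fisher's exact test). The other inhibitory SMAD, SMAD7, showed no such call. In the common CPYPP effect 2 of the 14 were higher and 3 lower, against 4.39% and 2.85% of all genes. SMAD1 was higher at a log2 fold change of 0.79 and SMURF2, a ubiquitin ligase that SMAD7 recruits to receptors, lower at -0.44. SMAD3 (-0.81) and TGIF2 (-0.79) were lower and SMURF1 (0.65) was higher, and these 3 were named after their values were seen. SMAD9 had 121 and 173 counts in the MDA-MB-231 libraries but 3 and 2 in those of MDA-MB-435.

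**Figure D4:**
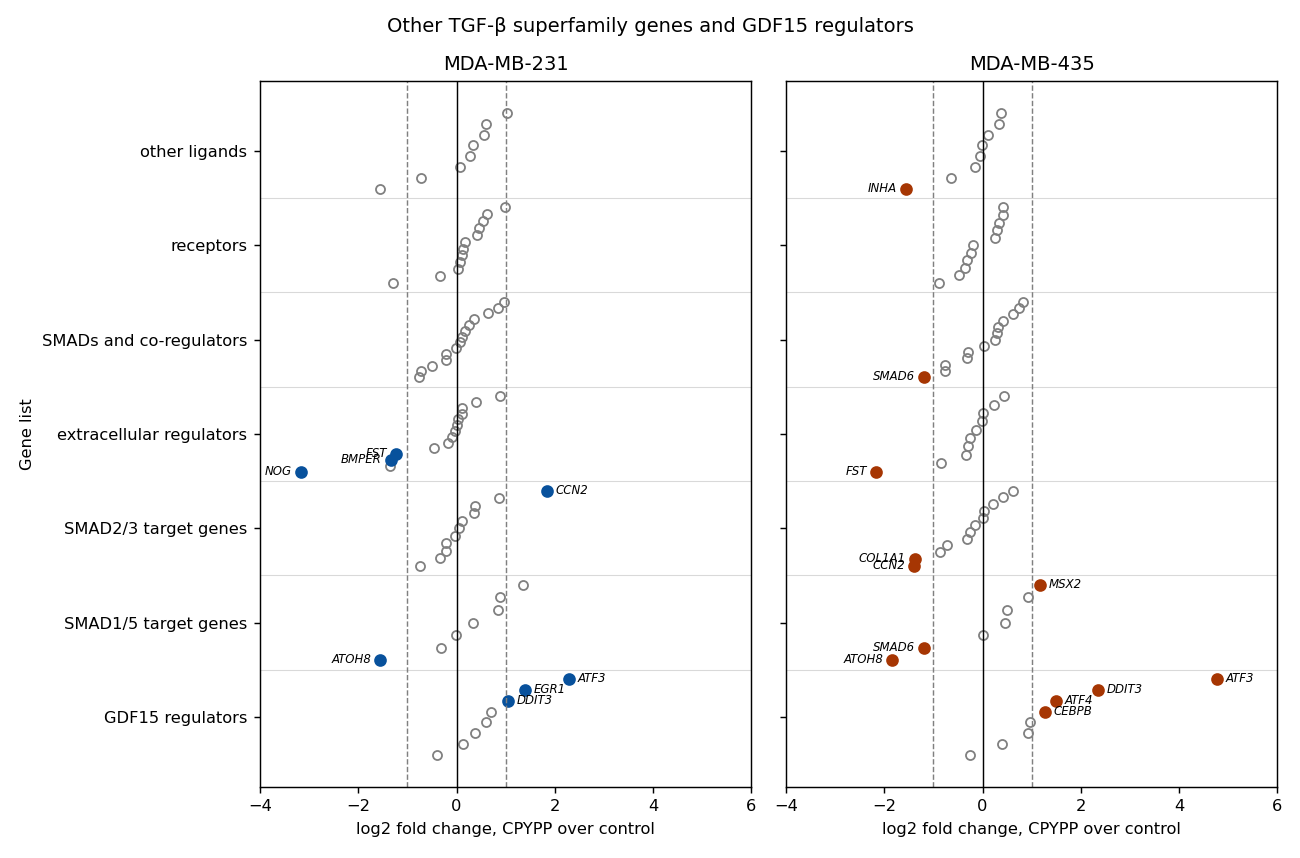
log2 fold change with CPYPP of every tested gene in 7 gene lists, MDA-MB-231 on the left and MDA-MB-435 on the right; filled, named points were called (adjusted p under 0.05 and a fold over 2), open points were not, and the vertical spread within a list only separates the points. NOG, FST, BMPER and ATOH8 lie to the left in MDA-MB-231, and ATF3 and DDIT3 lie to the right in both lines.

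Most targets of the 2 SMAD arms were not called, and the calls went in both directions. Of 12 SMAD2/3 target genes, 1 of 11 tested was higher in MDA-MB-231, against 4.22% of all genes. In MDA-MB-435 2 of 12 were lower, against 6.52%. Their median log2 fold changes were 0.05 and -0.21. CCN2, a matricellular protein that YAP also induces, went from 4043 to 10575 counts in MDA-MB-231, 3.57-fold higher (3.44 to 3.70), and in MDA-MB-435 it went from 1001 to 296, 2.62-fold lower (2.30 to 3.0). COL1A1, a collagen I chain, had 47 and 14 counts in MDA-MB-435, 2.60-fold lower (1.41 to 5.12), and was not called in MDA-MB-231. JUNB, a subunit of AP-1, was not called within a line and was higher in the common effect (log2 fold change 0.69, adjusted p = 0.0229 in edgeR's quasi-likelihood test).

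Of 8 further SMAD1/5 target genes, 7 were tested in each line. In MDA-MB-231 1 was lower, against 3.09% of all genes. In MDA-MB-435 2 were lower and 1 higher, against 6.52% and 3.17%. Their median log2 fold changes were 0.33 in MDA-MB-231 and 0.46 for MDA-MB-435, against -0.01 and -0.02 over all genes. ATOH8 fell in both, from 529 to 132 counts in MDA-MB-231 (2.94-fold, 2.42 to 3.58) and in MDA-MB-435 from 23 to 5 (3.57-fold, 1.33 to 12.0). SMAD6 is the other gene that fell in MDA-MB-435. MSX2 went from 23 to 40 counts there, 2.24-fold higher (1.31 to 3.92), and MSX1 had 89 and 95 counts there and none in MDA-MB-231. ID1 and ID3, the members from the same arm, were not called beside them.

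Several known regulators of GDF15 rose in both lines, whereas GDF15 itself rose in MDA-MB-435. Of 8 regulators, all tested, 3 were higher in MDA-MB-231 and 4 were higher in MDA-MB-435, against 4.22% and 3.17% of all genes. None was lower, and the median log2 fold changes were 0.65 and 1.11, against -0.01 and -0.02 over all genes. The study had already listed ATF3, ATF4 and DDIT3 as raised by CPYPP in these data. The list was chosen with earlier results of these data known, so these shares are no independent evidence. ATF3, a stress-induced bZIP factor, had 142 and 506 counts in MDA-MB-231, 4.86-fold higher (4.03 to 5.90), and 114 and 2406 in MDA-MB-435, 27.2-fold higher (22.5 to 33.1). DDIT3 was 2.05-fold higher (1.77 to 2.38) in MDA-MB-231 and 5.08-fold higher (4.33 to 5.99) in MDA-MB-435. Both folds were called larger in MDA-MB-435, by 5.59 (4.26 to 7.36) and 2.47 times (1.99 to 3.09). GDF15 also had its larger fold in MDA-MB-435. Between the controls the direction was not shared. DDIT3 was 1.73-fold lower in MDA-MB-435 (1.44 to 2.09) and ATF3 1.34-fold lower (1.04 to 1.72), neither called, while GDF15 was higher. A link between these genes and GDF15 was not tested.

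ATF4, which drives the integrated stress response, had 3441 and 3810 counts in MDA-MB-231 (234 and 359 TPM), 1.51-fold higher (1.44 to 1.58) and not called, and 6689 and 14544 in MDA-MB-435 (445 and 1174 TPM), 2.80-fold higher (2.72 to 2.89). EGR1, an immediate early factor, was called in MDA-MB-231 with 83 and 159 counts, and had 43 and 63 in MDA-MB-435. CEBPB was called in MDA-MB-435, at 2.40-fold (2.25 to 2.57), and was named after its values were seen. GDF15 at 44.1 TPM in the treated MDA-MB-435 library stood below all 3 of ATF4, ATF3 and DDIT3, while in the control of that line GDF15 at 16.3 TPM stood above ATF3 at 4.90 TPM.

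**Figure D5:**
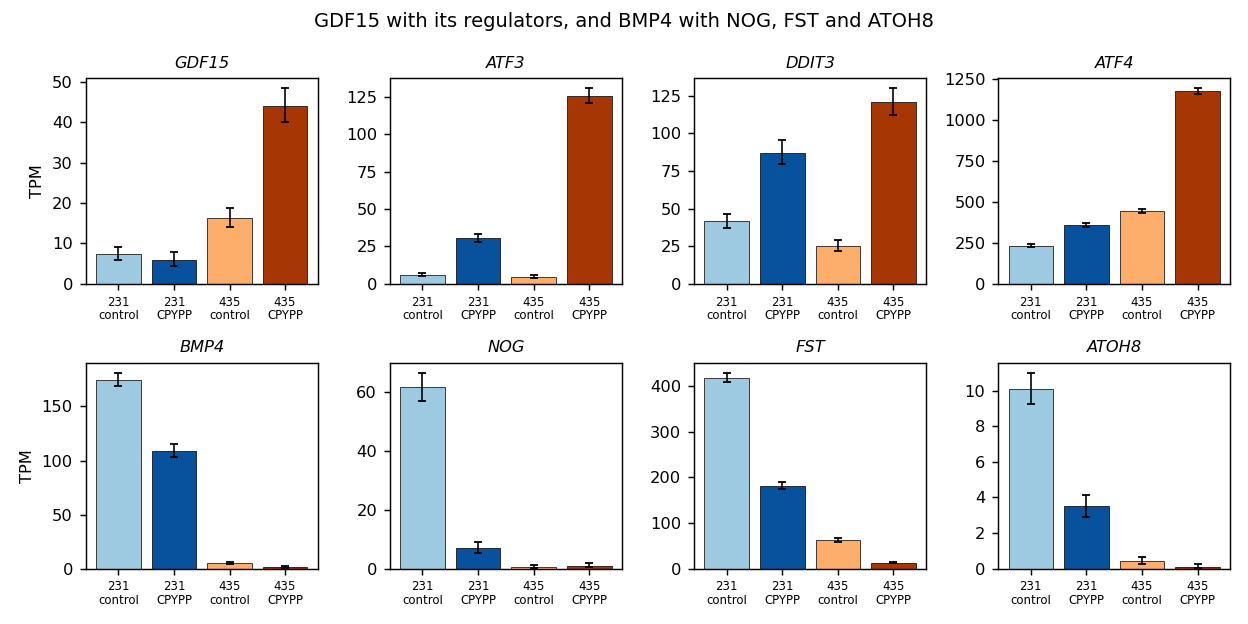
TPM per library (linear axes from 0, a scale for each gene) of GDF15 with ATF3, DDIT3 and ATF4, and of BMP4 with NOG, FST and ATOH8; bars are single libraries and error bars 95% exact Poisson intervals. ATF3 and DDIT3 rise with CPYPP in both lines while GDF15 is highest in treated MDA-MB-435, and BMP4, NOG, FST and ATOH8 are highest in the MDA-MB-231 control.

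The genes nearest to GDF15 were sought by the Euclidean distance over 3 log2 values, the CPYPP response in each line and the difference between the controls, among 14228 genes. They were C1S (distance 0.168), DDT (0.393), EAF2 (0.439), SPSB3 (0.620) and NUTM2G (0.621). C1S had 14 and 9 counts in MDA-MB-231 but 30 and 63 in the other line. All 5 had at most 14 counts in each MDA-MB-231 library and at most 89 in MDA-MB-435, so that their likeness rests on few reads, whereas GDF15 itself had at least 51.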

How the data were processed

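Poly(A) RNA was measured in 4 libraries, a control and a CPYPP library of each line. The authors deposited raw counts of reads for each gene, which were not normalized. The submitters' processing notes name cutadapt 1.9.1, HISAT2 2.2.1, HTSeq 0.6.1, DESeq2 and GRCh37.p13. However, 58241 of the 58254 gene identifiers shared with GENCODE v29, and all 10 members, overlap their GRCh38 positions, so that the table's coordinates are those of GRCh38. The strand setting is not given in the sources used here. The notes on growth and treatment mention MDA-MB-435 alone, so the line was taken from the sample titles.

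Counts were tested in R 4.3.3 with edgeR 4.0.16 and DESeq2 1.42.0 (limma 3.58.1 installed), and summarised in Python 3.11.15 using pandas 2.3.3 and numpy 2.4.6, with matplotlib 3.10.9 for plots and scipy 1.17.1 for intervals. For each pair of libraries, genes with at least 10 counts in 1 of them were scaled by TMM (factors 1.02 and 0.976 for MDA-MB-231, 1.05 and 0.950 for MDA-MB-435, 0.972 and 1.03 for the controls) and tested with edgeR's binomial test, with Benjamini-Hochberg adjustment over all genes tested. Genes were called at an adjusted p under 0.05 and a fold over 2, with counts of 3 or fewer set to 3 for the fold. Folds have 95% Clopper-Pearson intervals. Ratios of folds used Fisher's exact test, and common effects edgeR's quasi-likelihood test after filterByExpr (biological coefficient of variation 0.121, from the difference between the lines' responses). Log2 fold changes of pairs are log2 of the raw folds, except where the floor of 3 counts applies. With 17196385 to 22663954 counts per library, genes near 10 counts have intervals that span several-fold.

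The members and lists were chosen with earlier results of these data known. Named genes were all members, up to 4 called genes per list by the largest CPYPP response, and the 5 genes nearest to GDF15. Some genes of the lists are not reported here. Alternatives concerned scaling, filters, an assumed biological coefficient of variation of 0.2 or 0.4, protein-coding genes alone, DESeq2 and the design. The procedure was tested on simulated data. For pairs and ratios of folds these held counting error alone, and genes with few reads were not among those changed. The simulation therefore does not cover variation between cultures or calls on few reads. Sequences are from RefSeq (GRCh38.p14).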

Additional observations from a re-analysis of the deposited data

Results flagged for a closer look

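The change with CPYPP differed between the lines for 2 of the 8 members tested in both. Both folds were higher in MDA-MB-435, against 1.19% higher and 3.71% lower of 14262 genes. The GDF15 fold was 3.54 times higher in MDA-MB-435 than in MDA-MB-231 (2.37 to 5.32, adjusted p = 1.00e-09 in Fisher's exact test), with 86 and 51 counts in MDA-MB-231 against 196 and 436 in MDA-MB-435. The INHBA fold was 2.68 times higher in MDA-MB-435 (2.05 to 3.51, adjusted p = 3.40e-12 in Fisher's exact test), with 680 and 279 counts in MDA-MB-231 against 146 and 170 in MDA-MB-435. Both tests cover counting error between single libraries, and variation between cultures was not tested.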

How the results depend on the processing

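Of 306 alternative values for members, 283 kept their direction and side of the threshold, 14 lost a call, 6 gained one and 3 reversed. Each condition has 1 library, so no replicate could be left out, and the labels give no replicate numbers shared between groups. Requiring at least 10 counts in both libraries tests fewer genes and called 457 higher and 271 lower genes in MDA-MB-231 (1 member, BMP6), 602 lower genes in MDA-MB-435, and 2202 higher and 2046 lower between the controls, against 694, 508, 1078, 4054 and 3818. Protein-coding genes alone gave 434 and 246 for MDA-MB-231, 342 and 476 for MDA-MB-435, and 2508 higher between the controls. An assumed coefficient of variation of 0.2 left 113 higher and 43 lower genes and 0 members in MDA-MB-231, and 124, 147 and 1 member, GDF15, in MDA-MB-435 (main counts 524 and 1078). At 0.4 the numbers were 4 higher and 0 lower with 0 members in MDA-MB-231 and 13 and 1 with 0 members in MDA-MB-435, although 282 and 381 genes had an unadjusted p under 0.05 in edgeR's exact test, and 1462 and 1588 with 4 members between the controls. Those members were TGFB1, BMP4, BMP6 and GDF5. For the common CPYPP effect (737 higher, 478 lower, 1 member), DESeq2 called 1263, 868 and 3, DESeq2 size factors 2 members, total counts 1087 lower and 2 members, and no filter 1116, 885 and 3. TGFB2 was called in all 4 of these, ID3 in the first and GDF15 in the last (adjusted p = 0.0468 in edgeR's quasi-likelihood test). Without the line term 0 genes were called either way and 0 members, with 167 genes at an unadjusted p under 0.05. Without the treatment term the line effect of SMAD7 and ID3 lost its call. Total counts lowered the share of calls that were higher from 57.7% to 50.04% for MDA-MB-231, from 32.7% to 19.9% for MDA-MB-435 and from 60.7% to 43.7% for the common effect. Directions turned for 10 small log2 fold changes, none of them called, and the cause was not tested. With total counts these were ID1 in MDA-MB-231 (-0.0286), SMAD7 (-0.1226) and BMP2 (-0.0453) in MDA-MB-435, the BMP2 ratio (-0.0456), and the common effect of AMH (-0.0114) and BMP2 (-0.0186). DESeq2 size factors turned SMAD6 in MDA-MB-231 (0.009). Without the other term it was the common effect of TGFB1 (0.0477) and AMH (-0.0362) and the line effect of DDIT3 (0.1651). At these depths BMP6 and GDF5 could not be tested in MDA-MB-435.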
